A study of Mus musculus with 5 samples.

Results

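Fibroblast growth factors (Fgf) are secreted proteins that signal through receptor tyrosine kinases, and 10 mouse Fgf ligand genes are described here: Fgf3, Fgf4, Fgf5, Fgf8, Fgf9, Fgf10, Fgf15, Fgf17, Fgf18 and Fgf20. They were chosen by a list of symbols, with earlier results of these data known, out of 21027 protein-coding genes with a RefSeq mRNA. The deposited gene and promoter tables held 9 of them (all but Fgf17). Chromatin immunoprecipitation and sequencing (ChIP-seq) had been run on 5 libraries of mouse embryonic stem cells grown on irradiated embryonic fibroblasts, 1 library per group. The antibody to Ring1b was used on the KAP1 fl/fl line after 4-OH-Tamoxifen, and on the Ring1b fl/fl line after 4-OH-Tamoxifen or vehicle (ethanol). The antibody to KAP1 was used on the KAP1 fl/fl line after 4-OH-Tamoxifen or vehicle. The fl/fl alleles are conditional, and the labels call the cells given the drug knockout and the cells given vehicle wild type. The drug or vehicle was given for 24 h, followed by 48 h of culture, which for the Ring1b fl/fl line was with tamoxifen and for the KAP1 fl/fl line without it. Among the vehicle libraries each protein was mapped in its own fl/fl line, so there a difference between lines and a difference between the proteins cannot be told apart.

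KAP1, encoded by Trim28, is a corepressor that zinc finger proteins bring to DNA, and Ring1b, encoded by Rnf2, is the catalytic subunit of Polycomb repressive complex 1, which sits at CpG-rich promoters of developmental genes. Fgf ligands bind Fgf receptors and activate the ERK kinase cascade. In embryonic stem cells Fgf4 is the main ligand of this kind, and its signal prepares the cells to leave the pluripotent state. Other Fgf ligands act later, each in particular tissues of the embryo.

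3 peak lists were deposited. The knockout list holds Ring1b peaks of KAP1 fl/fl cells given tamoxifen, called against Ring1b of Ring1b fl/fl cells given tamoxifen. The Ring1b list holds peaks of the vehicle library called against the same tamoxifen library of that line, so these lists share their control. The KAP1 list holds peaks of the vehicle library called against the tamoxifen library of the KAP1 fl/fl line. The knockout list held 8928 peaks, the Ring1b list 13516 and the KAP1 list 82775. A peak score is the authors' own value, 10 times the -log10 p from the peak caller, and it ranks peaks within 1 list. Median scores were 58.9 in the knockout list, 116 in the Ring1b list and 96.2 in the KAP1 list, and the lowest score in each was about 50.0. In the Ring1b list 732 peaks share the score 3100, so the order among those is not known. Nor is their place known against the peaks listed higher, up to 3233. The sources used here give no sequencing depth, no value has a replicate error, and no difference between conditions was tested. Peak lists hold no expression, so the labelled cell type was not checked against markers.

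Promoter sequences of 4 of the genes are shown because they differ in which proteins lay on them: Fgf4 and Fgf18 had KAP1 and Ring1b, and Fgf5 and Fgf9 had Ring1b without KAP1. Each runs 5′ to 3′ along the gene, from 250 bases before the start site to 50 after it (RefSeq, GRCm38.p6), and capitals mark each CpG, the dinucleotide that CpG islands are rich in.
Fgf4: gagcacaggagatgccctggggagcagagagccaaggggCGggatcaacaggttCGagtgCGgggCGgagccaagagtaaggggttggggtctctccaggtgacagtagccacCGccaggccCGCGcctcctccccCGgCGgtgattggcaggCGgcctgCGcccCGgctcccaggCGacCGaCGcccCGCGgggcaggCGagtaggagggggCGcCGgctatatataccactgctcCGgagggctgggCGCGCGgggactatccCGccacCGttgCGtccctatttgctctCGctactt
Fgf18: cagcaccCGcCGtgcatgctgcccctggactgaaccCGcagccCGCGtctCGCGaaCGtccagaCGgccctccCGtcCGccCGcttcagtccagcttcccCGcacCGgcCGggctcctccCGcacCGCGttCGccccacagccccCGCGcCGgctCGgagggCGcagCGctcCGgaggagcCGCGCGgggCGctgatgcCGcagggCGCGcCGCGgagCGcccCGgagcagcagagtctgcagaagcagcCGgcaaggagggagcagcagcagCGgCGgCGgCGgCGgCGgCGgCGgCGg
Fgf5: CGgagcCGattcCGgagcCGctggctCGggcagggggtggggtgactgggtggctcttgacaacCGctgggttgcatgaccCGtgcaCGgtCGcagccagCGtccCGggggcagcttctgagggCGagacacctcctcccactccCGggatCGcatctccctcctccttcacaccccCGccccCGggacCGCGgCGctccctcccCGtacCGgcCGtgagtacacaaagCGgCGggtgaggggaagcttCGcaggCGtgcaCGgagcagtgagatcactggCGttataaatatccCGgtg
Fgf9: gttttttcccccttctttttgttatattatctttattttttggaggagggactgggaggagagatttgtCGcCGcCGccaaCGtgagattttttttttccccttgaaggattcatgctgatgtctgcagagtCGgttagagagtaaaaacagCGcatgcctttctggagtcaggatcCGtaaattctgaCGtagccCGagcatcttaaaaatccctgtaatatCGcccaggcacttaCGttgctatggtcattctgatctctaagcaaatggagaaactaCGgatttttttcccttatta
The windows lie at chr7:144861136-144861435 for Fgf4 (plus strand), chr11:33147351-33147650 for Fgf18 (minus strand), chr5:98253934-98254233 for Fgf5 (plus strand) and chr14:58072436-58072735 for Fgf9 (plus strand).

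The RefSeq table held windows for 6 of the 10 genes, and in all 6 its start was the midpoint of the authors' promoter. The 4 windows printed differ widely in base composition. The Fgf18 window held 47 CpG, more than 98.1% of the 20487 windows of protein-coding genes, at 78.7% G+C. Fgf5 and Fgf4 had 29 and 28 CpG at 68.3% and 69.7% G+C. Fgf9 had 12 CpG at 42.7% G+C, and its window lies inside the RefSeq gene, which begins at 58070671. The remaining windows, of Fgf3 and Fgf10, held 14 and 10 CpG. Over all windows the median was 14 CpG, with quartiles of 4 and 25. By the class of their gene, the median was 21 with both proteins, 17 with Ring1b without KAP1, 19 with KAP1 without Ring1b and 4 with neither. Observed over expected CpG ran from 0.394 at Fgf10 to 1.02 at Fgf18, beside a median of 0.588 over all windows.

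Short letter patterns were searched on both strands, and matches of different patterns may overlap. GGGCGG, a GC box, was found in the windows of Fgf4, Fgf5, Fgf10 and Fgf18, and in 47.6% of all windows. CGCG was found in every member window but that of Fgf9, and in 50.6% of all windows. TATAAA was found in the Fgf5 window alone and in 12.4% of all windows. CACGTG, an E-box, was in none of the 6 windows and in 8.03% of all windows. A match describes these letters only.

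Ring1b lay at the promoters of 9 of the 10 Fgf genes, where a promoter reaches 1 kb to each side of the start site. Of all protein-coding genes, 27.0% had a Ring1b promoter. KAP1 lay at 7 of the 10, beside 53.0% of all genes. Those 7, Fgf3, Fgf4, Fgf8, Fgf10, Fgf15, Fgf18 and Fgf20, had both proteins, beside 23.3% of all genes. Fgf5 and Fgf9 had Ring1b without KAP1, a class that holds 3.73% of all genes. Fgf17 was in no table, like 43.3% of all genes, and none of the 10 had KAP1 without Ring1b, which 29.7% of all genes had. These shares describe a list chosen with earlier results of these data known, and were not tested. Of 12 Fgf genes outside the list, 6 had Ring1b at a promoter and 6 had KAP1. The tables of whole genes gave the same class for each of the 10 genes. Over all genes those tables listed 29.3% with Ring1b, 55.8% with KAP1, 27.3% with both, 1.97% with Ring1b without KAP1, 28.5% with KAP1 without Ring1b and 42.2% with neither.

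The strength of the Ring1b peak varied widely among these genes. Over the 9 genes with a peak the highest score at the promoter had a median of 1949, beside 237 over the 5679 protein-coding genes with a Ring1b promoter. The peak was 2423 bp wide at the median, beside 935 bp. All but Fgf4 scored above the all-gene median. KAP1 peaks at these promoters scored lower, at the median, than those of all genes with a KAP1 promoter. Over the 7 genes their median was 99.4, beside 147 over the 11147 genes with a KAP1 promoter, and Fgf3, Fgf4 and Fgf18 were above that value.

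**Figure D1:**
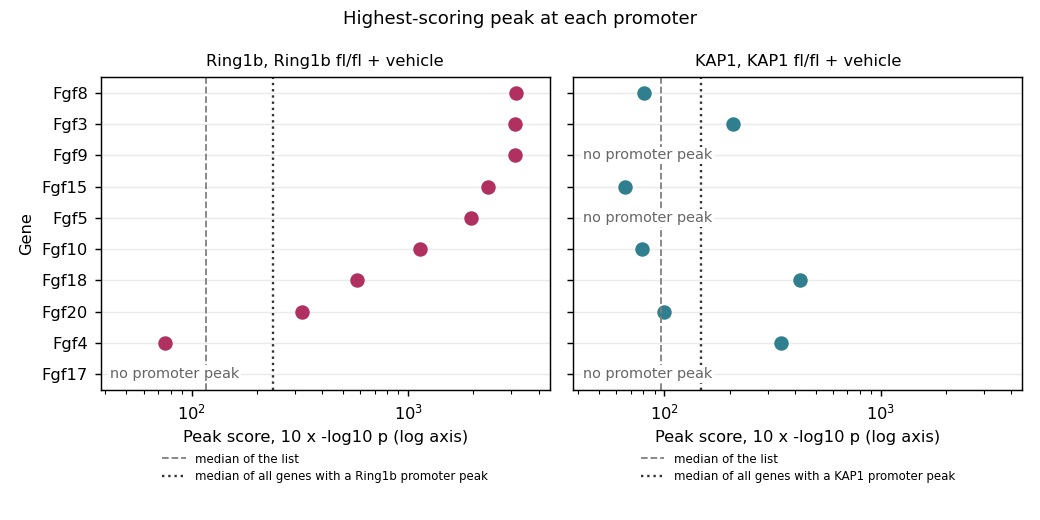
Highest-scoring peak touching each Fgf promoter, with the score on a log axis for Ring1b (left) and KAP1 (right). Each point is 1 peak from 1 library, genes run down the page by Ring1b score, and lines mark the median of the list (dashed) and of all genes with a promoter peak of that protein (dotted). Fgf4 has the lowest Ring1b score, 75.4, and the second-highest KAP1 score, 345.

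Fgf8, Fgf17 and Fgf18 form a subfamily. Fgf8 acts in gastrulation and in the signalling centres that pattern the brain and limb. Its promoter had the highest listed Ring1b score of the 10 genes, 3136, at a peak 3147 bp wide with its summit 435 bp into the gene (gene at chromosome 19, 45736491 to 45742941, minus strand). That peak ranked 36 of 13516 by listed score. Fgf3 and Fgf9, at the shared score of 3100, cannot be placed above or below it. KAP1 peaks at the Fgf8 promoter were weak, at 80.7 and 55.7. Fgf8 had other Ring1b peaks, scoring 538 inside the gene and 223 upstream. The peak inside the gene coincided with the strongest KAP1 peak of Fgf8, score 234: the Ring1b summit lay 5845 bp and the KAP1 summit 5846 bp from the start, near the end of the gene. In the authors' deposited table of whole genes, the KAP1 region listed for Fgf8 is this one, with a score of 234, and the Ring1b region is the promoter one, with 3136. The whole-gene class of Fgf8 thus joins regions several kb apart, while its promoter class does not.

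Fgf18, a regulator of cartilage and bone growth, had a Ring1b score of 580 (gene at chromosome 11, 33116970 to 33147400, minus strand). Its KAP1 peak of 421 was the strongest in the peak list to touch a promoter of the 10 genes. The KAP1 peak was 1773 bp wide and ran from 33147066 to 33148838, across the start site at 33147400. Its summit lay at -1183 bp from the start, just upstream of the promoter, which spans 33146401 to 33148400. The Ring1b summit was at -379 bp, so the summits were 804 bp apart, the widest such gap among the 7 genes with both. The authors' deposited promoter table lists a narrower KAP1 region there, with a score of 242, below the 284 it lists at Fgf4. By that table the strongest KAP1 promoter region of the 10 genes is at Fgf4. The authors' table of whole genes gives 421 for Fgf18 and 345 for Fgf4. A weak KAP1 peak of 64.3 lay 24281 bp into the gene.

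Fgf17, which acts in the developing midbrain and cerebellum, had no Ring1b peak in the gene or within 10 kb of it (chromosome 14, 70636203 to 70642268). Its nearest Ring1b peak was 80872 bp away. KAP1 peaks of 53.4 and 53.7, close to the lowest score of the list, lay within 10 kb, the nearer of them 6203 bp from the gene. This gene alone among the 10 lacked both proteins over its whole length.

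Fgf3, Fgf4 and Fgf15 lie side by side on chromosome 7, all on the plus strand. Fgf3, a ligand of inner ear and tail development, spans 144838612 to 144843348, Fgf4 144861386 to 144865245, and Fgf15, a ligand of the developing brain and of the gut in bile acid control, 144896532 to 144900953. The stretch between Fgf3 and Fgf4 is 18037 bp long and that between Fgf4 and Fgf15 31286 bp. The outer genes had strong, wide Ring1b peaks over their start sites: 3100 and 2823 bp at Fgf3, and 2338 and 2450 bp at Fgf15. Fgf4, between them, had a Ring1b peak of 75.4 that was 414 bp wide. Of the Ring1b list 31.3% scored lower than this peak and 33.2% was narrower. No Ring1b summit lay in either stretch between the genes.

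KAP1 was instead strongest at Fgf4. The Fgf4 promoter had a KAP1 peak of 345, 1434 bp wide, with its summit 17 bp into the gene, and the Ring1b peak lay wholly inside it with its summit 39 bp into the gene. The KAP1 score was 208 at Fgf3 and 65.6 at Fgf15, although the Fgf15 peak was 1378 bp wide. The authors' deposited promoter table gives 284 for Fgf4, 209 for Fgf3 and 66 for Fgf15, and their table of whole genes 345, 208 and 66. KAP1 peaks were dense around Fgf4: 16 lay in the gene or within 10 kb, and 2.38% of all protein-coding genes had as many or more. The gene itself held 3 KAP1 summits, scoring 89.3 to 345. A further 9 lay between Fgf3 and Fgf4, scoring 53.4 to 334, and 8 between Fgf4 and Fgf15, scoring 62.8 to 374. The strongest of all, 374, lay 5890 bp past the Fgf4 start, beyond the end of the gene. Fgf3 and Fgf15 had 3 and 4 KAP1 peaks in the gene or within 10 kb, and 1 of those of Fgf3 is among the 16 of Fgf4.

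**Figure D2:**
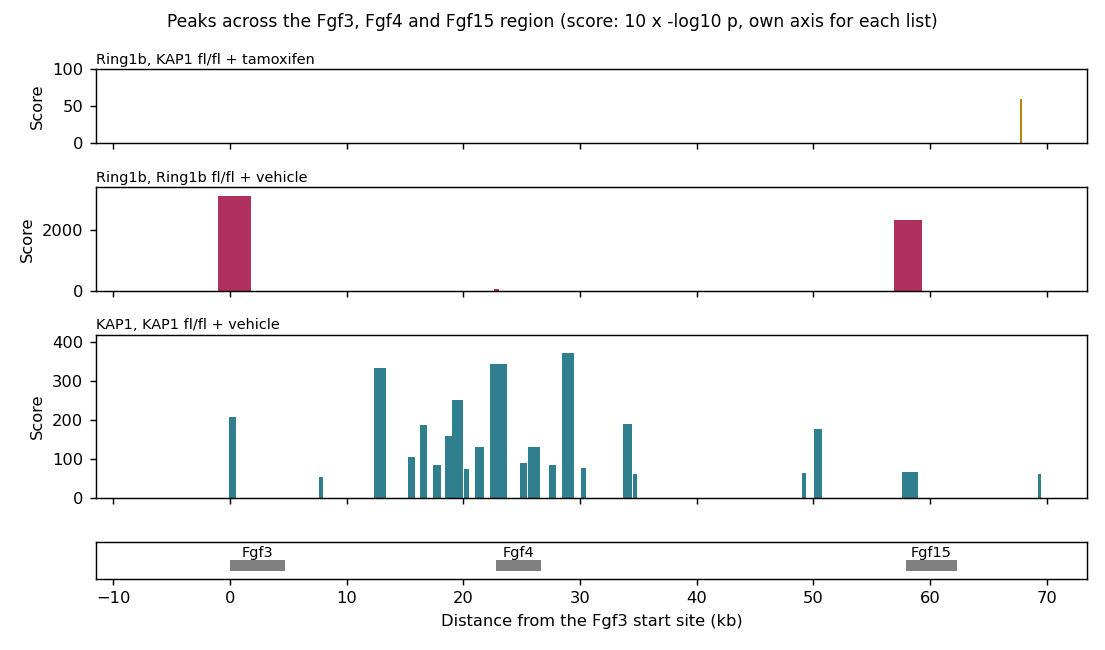
Peaks across the Fgf3, Fgf4 and Fgf15 region, by distance from the Fgf3 start site in kb. Each bar spans 1 peak and its height is the score on an axis of its own for each list, so heights compare within a panel only. The Ring1b list has 1 peak at each gene, low at Fgf4 (75.4), while KAP1 peaks crowd around Fgf4 and the knockout list has 1 peak, past the end of Fgf15.

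Fgf5 and Fgf9 had strong Ring1b peaks and no KAP1 nearby. Fgf5 is switched on when embryonic stem cells move to the state of the later epiblast, and it also controls hair length (chromosome 5, 98254184 to 98277033, plus strand). Its promoter peak scored 1949 over 2423 bp, with its summit at -64 bp from the start, and a second Ring1b peak of 284 lay 1570 bp into the gene. The nearest KAP1 peak was 52032 bp from the gene. Fgf9, a ligand of lung, gonad and skeletal development, had the widest Ring1b peak of the 10 genes, 6577 bp with a score of 3100 (gene at chromosome 14, 58070671 to 58112854, plus strand). It ranked 141 by width in the Ring1b list, in which 247 peaks were 5 kb or wider, and it covered the start site with its summit at -538 bp. That start site, 58072686, is the midpoint of the authors' promoter and lies inside the RefSeq gene, which begins at 58070671. The summit, at 58072148, is therefore inside the gene too. The nearest KAP1 peak was 154961 bp from the gene, with a score of 58.2.

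Fgf10 and Fgf20 had both proteins, with Ring1b scores below the median of 1949 for the Fgf genes with a peak. Fgf10, needed for limb and lung buds, had a pair of Ring1b peaks separated by a few bases, scoring 1131 and 1046, with summits at -372 and -1244 bp from the start (chromosome 13, 118714699 to 118792573, plus strand). Its KAP1 peak scored 78.6, lay inside the stronger of them and had its summit at -338 bp, 34 bp from the Ring1b summit. A KAP1 peak of 51.5 lay 60666 bp into the gene. Fgf20, a ligand of kidney progenitors and the inner ear, had a Ring1b peak of 324 over 1040 bp and KAP1 peaks of 99.4 and 58.1 (chromosome 8, 40279166 to 40286953, minus strand). The KAP1 peaks covered 89.4% of the Ring1b peak, against 23.9% at Fgf3 and 28.8% at Fgf8. That share was 100% at Fgf4, 66.2% at Fgf18, 56.2% at Fgf15 and 32.4% at the stronger Fgf10 peak.

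Where both proteins were present, summits of the strongest peaks were 13 bp apart at Fgf3, 22 bp at Fgf4 and 34 bp at Fgf10. At Fgf8, Fgf20, Fgf15 and Fgf18 they were 380, 402, 496 and 804 bp apart. The median of the 7 was 380 bp, beside 235 bp over the 4960 deposited promoters of protein-coding genes with both. The closest summits were thus at Fgf3, with a Ring1b score of 3100, and at Fgf4, with 75.4, the lowest of the 9 genes.

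**Figure D3:**
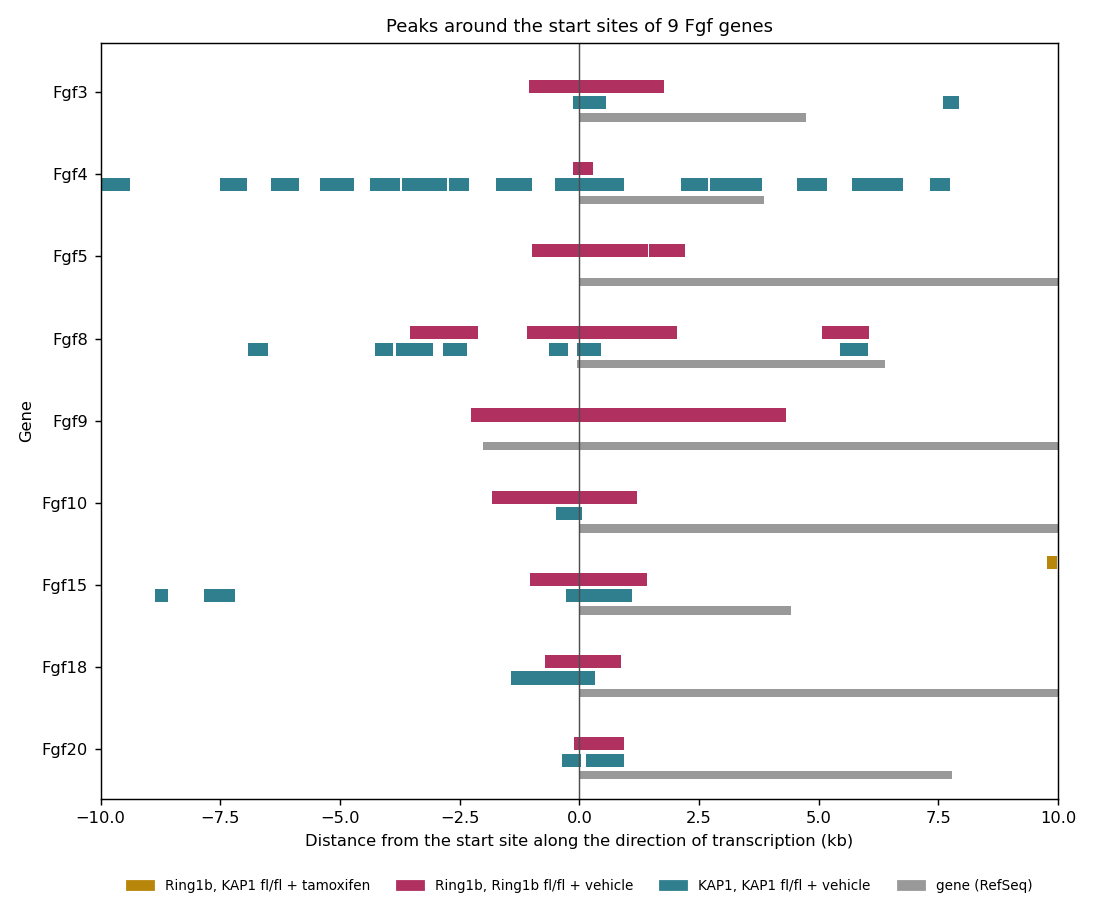
Peaks within 10 kb of the start sites of 9 Fgf genes, drawn along the direction of transcription, with distance in kb. Bars span peaks of the 3 lists, and grey bars the gene as far as it lies in the window. Fgf17 is not drawn because it has no deposited promoter. Ring1b covers all 9 start sites, Fgf5 and Fgf9 have no KAP1 peak in the window, and the only knockout-list peak lies downstream of Fgf15.

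Peaks inside the 10 genes but outside promoters were counted too, without the same count over all genes, so they cannot be called few or many. Gene bodies had 2 further Ring1b peaks, in Fgf5 and Fgf8, and 5 further KAP1 peaks, in Fgf4, Fgf8, Fgf10 and Fgf18. In all, 11 Ring1b and 13 KAP1 peaks overlapped the 10 genes. Genes with an overlapping peak numbered 9 for Ring1b, beside 34.0% of all protein-coding genes, and 7 for KAP1, beside 69.6%. With 10 kb on each side there were 13 Ring1b and 37 KAP1 peaks, and 16 of the KAP1 peaks were those around Fgf4. Ring1b then lay at 9 of the 10 genes, beside 43.7% of all genes, and KAP1 at 8, beside 79.4%.

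The knockout list was then read at the same places, to ask which Ring1b sites of the Fgf genes were called in KAP1 fl/fl cells given tamoxifen. At the promoters and inside the 10 genes it held no peak, where 14.3% of all genes had a peak over the gene. The 10 Ring1b peaks at Fgf promoters met 0 knockout-list peaks, a count that allows a share of up to 30.0% (3 counts of 10). Such overlap was rare everywhere: 0.326% of all 13516 Ring1b peaks met a knockout-list peak, and 0.274% of the 6567 at promoters of protein-coding genes, so the count of 0 does not set the Fgf promoters apart. Within 10 kb, 2 genes had a knockout-list peak, beside 21.8% of all protein-coding genes. The peak near Fgf15 scored 59.8 and lay 5351 bp past the gene. The peak near Fgf17 scored 51.0, close to the lowest score of the list, and lay 345 bp from the gene, inside its neighbour Dmtn. Of the other genes, Fgf5 had its nearest knockout-list peak at 16128 bp and Fgf18 at 342501 bp. The knockout list was called against a control from the other line, which was also cultured with tamoxifen for the 48 h after the first 24 h. The KAP1 fl/fl cells were cultured without it for that time, so line and drug exposure cannot be told apart there. A Ring1b library of KAP1 fl/fl cells given vehicle was not analysed here. An uncalled peak therefore does not show that Ring1b was lost.

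The other genes of the pathway were counted from lists by role, to be read beside the shares of all protein-coding genes. Those were 27.0% with Ring1b at a promoter and 53.0% with KAP1. Among 12 other Fgf genes, 6 had Ring1b at a promoter and 6 had KAP1, with 3 in common. Fgf12 and Fgf16 scored 3100 for Ring1b, Fgf13 1356 and Fgf11 1133. Fgf12, Fgf13 and Fgf11 encode forms that stay inside the cell, and Fgf16 a ligand of heart development. Fgf2, Fgf13 and Fgf16 had Ring1b without KAP1, at 593 for Fgf2, a ligand used to culture stem cells.

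The receptors and co-receptors had Ring1b at 6 of 7 promoters and KAP1 at 5. Fgfr3 and Fgfr2 scored 3100 and 2810 for Ring1b and 109 and 74.9 for KAP1. Fgfrl1, a receptor without a kinase domain, had 383 and 190. Kl, the co-receptor for endocrine Fgf ligands, had Ring1b alone at 986. The tables of whole genes listed both proteins at all 7.

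Further along the pathway, all 15 transducers had KAP1 at a promoter (12 in the tables of whole genes), and 3 had Ring1b, with scores of 1245 and 1047 at the adaptors Gab1 and Frs2. Of 14 target and feedback genes, 13 had KAP1 at a promoter (12 in the tables of whole genes) and 8 Ring1b, with no Ring1b promoter lacking KAP1. The highest Ring1b scores there were 986 at Egr1, an immediate early transcription factor, 920 at Spry1 and 227 at Spry2, inhibitors of receptor signalling, and 131 at Flrt3, a membrane protein that binds Fgf receptors. The median Ring1b score of the 8 was 118, beside 1949 for the 9 Fgf ligand genes. The lists hold few genes. Their differences from each other, or from all genes (27.0% with Ring1b and 53.0% with KAP1 at a promoter), were not tested.

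Other ligand families were counted in the same way, beside the same 27.0% of all genes with Ring1b and 53.0% with KAP1 at a promoter. Ring1b lay at 18 of 19 Wnt promoters and KAP1 at 12, and Wnt2, Wnt5a, Wnt7b, Wnt9a, Wnt10b and Wnt16 had Ring1b without KAP1. In the tables of whole genes that class held 2 Wnt genes. Ring1b scores of 3100 were shared by 8 Wnt genes (Wnt1, Wnt3a, Wnt5a, Wnt6, Wnt7a, Wnt7b, Wnt10b and Wnt11). Of 13 BMP, Nodal and Lefty genes, 8 had Ring1b and 7 had KAP1, and Bmp2, Bmp3 and Bmp4 had Ring1b without KAP1. In the tables of whole genes, 9 of the 13 had KAP1 and 1 had Ring1b without it. Bmp2 and Bmp6 scored 3100 for Ring1b, Bmp4 1786 and Bmp7 1480. Median Ring1b scores were 1822 for Wnt genes and 1177 for the BMP group.

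**Figure D4:**
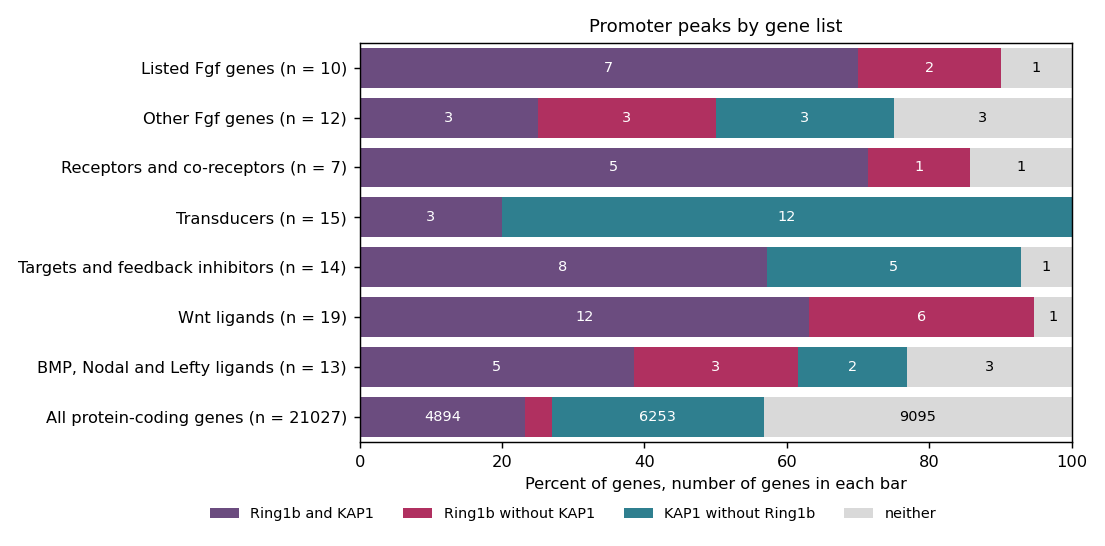
Percent of genes in each list by the proteins at their promoters, with the number of genes printed in each bar. The Fgf genes described here are in the top row (7 with both, 2 with Ring1b without KAP1, 1 with neither) and all 21027 protein-coding genes in the bottom row, where 43.3% had neither.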

How the data were processed

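ChIP-seq peak lists and gene tables were used as the authors deposited them. The submitters' processing notes name build mm10 (GRCm38), bedtools 2.16.2, MACS 1.4.2, Bowtie2 and CASAVA 1.8.2. Per the file headers, each list was called on 1 library against 1 other, and the deposited score is 10 times the -log10 p. Table scores are rounded, and tables list 1 region per gene or promoter. Of the KAP1 regions listed at the 7 shared Fgf promoters, 4 have the borders of a list peak, and so do all 9 Ring1b regions.

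Starts counted from 0 in the files were raised by 1. Start sites are the midpoints of deposited promoters. Gene names and spans came from RefSeq (GRCm38.p6), matched by accession for 12937 of 13039 deposited promoters and otherwise by symbol. Overlap meant at least 1 bp. Counts over genes used Python 3.11.15 and pandas 2.3.3, and the overlap code was tested on simulated peaks. The limit that a count of 0 allows covers counting error only. Named genes are the 10 members, in each pathway list the 4 highest Ring1b promoter scores (with ties, all 8 at the top for Wnt genes), and those with Ring1b without KAP1, except 1 gene that is not reported here. Members, lists and the dense peaks at Fgf4 were chosen with earlier results of these data known. No test between conditions was possible with 1 library per group.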

Additional observations from a re-analysis of the deposited data

How the results depend on the processing

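Of 29 alternative settings over 11 results, 21 left the value within 1.5 times of the reported one. Only peaks in the upper 50% of scores of their own list left KAP1 at 4 Fgf promoters, both proteins at 3 and 6 KAP1 peaks over the genes. The promoters of Fgf8, Fgf10 and Fgf15 lost KAP1 under that setting, and that of Fgf4 lost Ring1b. With 10 kb on each side, 37 KAP1 peaks were counted. A knockout-list peak lay within 50 kb of 5 genes and within 100 kb of 8. The share of all genes at those distances was not counted, so these counts do not set the Fgf genes apart. With genes in any deposited table as background, 41.0% had Ring1b at a promoter and 35.3% both proteins. The count of 9 genes with Ring1b at a promoter was 8 to 9 under every alternative run. The depth of the libraries is not known here, so how many peaks fell short of the lowest score of 50.0 cannot be said, and a gene without a peak is only a gene where none was called.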

Other observations

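Each gene of the Fgf8 subfamily has a nucleophosmin family gene, encoding a histone chaperone, as its neighbour on 1 side, a pattern noticed after the values were seen. Npm3 lies 4792 bp from Fgf8, Npm2 5027 bp from Fgf17 and Npm1 5097 bp from Fgf18. The promoters of Npm3 and Npm1 did not carry the Ring1b of the Fgf genes beside them: KAP1 alone was listed at Npm3 (score 81.0) and Npm1 (187). Npm2, like Fgf17 beside it, was in no table. Fgf8 and Fgf18 had Ring1b scores of 3136 and 580, and Fgf17 had none. No peak at an Fgf promoter reached the deposited promoter of another gene.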
